A study of Mus musculus with 4 samples.

Results

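The phagocyte NADPH oxidase subunits and the peroxide-removing enzymes form a set of 9 genes, Cybb, Cyba, Ncf1, Ncf4 and Rac2 for the oxidase and Cat, Gpx1, Prdx1 and Txnrd1 for peroxide removal. They were chosen by symbol for their function, with earlier results of these data known, and all 9 were found among the 27179 genes of the FPKM table (fragments per length of gene and per number of mapped reads). RNA was sequenced from Mac-1+/c-Kit+ cells, the population enriched for leukemia-initiating cells (LICs) in the murine MLL-AF9 model of acute myeloid leukemia, with 2 WT and 2 CD274-null libraries. The comparison addressed what differs in LICs that lack CD274 (PD-L1), an immune checkpoint ligand.

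All libraries came from bone marrow labelled C57BL/6 and 6 weeks of age. In the study's model, Lin- fetal liver cells were infected with an MLL-AF9 retrovirus and transplanted, so WT and CD274-null (CD274-/-) leukemias carried the same fusion oncogene, and the genotype label separates the groups. The methods give neither the round of transplantation nor the number of mice behind a library. Nothing in the labels says that replicates came from separate animals, and p-values then measure only the spread between these libraries, whose sex chromosome genes, given below, differed within each group. An exact permutation test of 2 against 2 libraries cannot go below a two-sided p of 1 in 3. Single genes were therefore tested with limma, which borrows spread from all 13230 tested genes. Only p-values adjusted over all genes of a fit are printed, and the voom and GC-corrected fits held 13185 and 11435 genes.

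Several facts about the libraries bear on what follows. Recovered reads on genes summed to between 8452662 and 11048767 per library. Cd274 itself was at 2.80 and 0.945 FPKM in WT against 1.43 and 2.29 in CD274-null libraries (adjusted p = 0.955, limma), so its RNA did not separate the labels, a value per gene cannot show the loss of single exons, and every direction below rests on the labels alone. The markers of this cell population were present, with Itgam (Mac-1) between 100 and 174 FPKM and Kit between 6.59 and 19.5, lowest in WT replicate 1. The 13 mature neutrophil markers summed to 43698 and 8863 FPKM in WT against 18475 and 31548 in CD274-null libraries. Most of each of these sums came from S100a8, S100a9, Camp and Ngp. The B and plasma cell list summed to 30.9 and 59.1 FPKM in WT against 313 and 401. Genes of the sex chromosomes were mixed within a group: Xist was at 2.57 and 51.1 FPKM in WT against 107 and 68.7 in CD274-null libraries, while the Y-linked Eif2s3y was at 49.7 and 40.2 against 0 and 19.9.

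The phagocyte oxidase moves electrons from NADPH across a membrane to oxygen and makes superoxide. Its catalytic core is a membrane heterodimer of gp91phox, encoded by Cybb, and p22phox, encoded by Cyba. Cytosolic subunits, among them p47phox (Ncf1) and p40phox (Ncf4), and the small GTPase Rac2 join it on activation, and loss of a phox subunit causes chronic granulomatous disease. Superoxide turns into hydrogen peroxide, which catalase (Cat) splits, glutathione peroxidase (Gpx1, a selenoprotein) reduces with glutathione, and peroxiredoxin (Prdx1) reduces with thioredoxin, which thioredoxin reductase (Txnrd1, also a selenoprotein) recharges from NADPH. Neutrophils and monocytes are known for high oxidase activity. Many of the protective genes are targets of the transcription factor NRF2, which binds antioxidant response elements.

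No member passed the test between CD274-null and WT LICs. Of the 9 members, 0 were candidates, meaning an unadjusted p under 0.01 with a fold change above 1.5 in limma, where 3.63% of the 13230 tested genes were (480 genes, 316 higher and 164 lower in CD274-null). The members included 0 with an unadjusted p under 0.05, both in limma on FPKM and in limma's voom fit on the recovered reads, against 13.7% of all tested genes in limma on FPKM, and 0 with an adjusted p under 0.05 in either. By sign 4 members were higher and 5 lower, with a median log2 fold change of 0.00 beside 0.01 over all tested genes. Both CD274-null values lay above both WT values for 2 members, Rac2 and Prdx1, against 25.6% of tested genes, and below both for 0 members, against 21.8%. What stood out within the set was 1 library rather than a group: Cybb, and to a smaller extent Txnrd1, were highest in WT replicate 1.

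**Figure D1:**
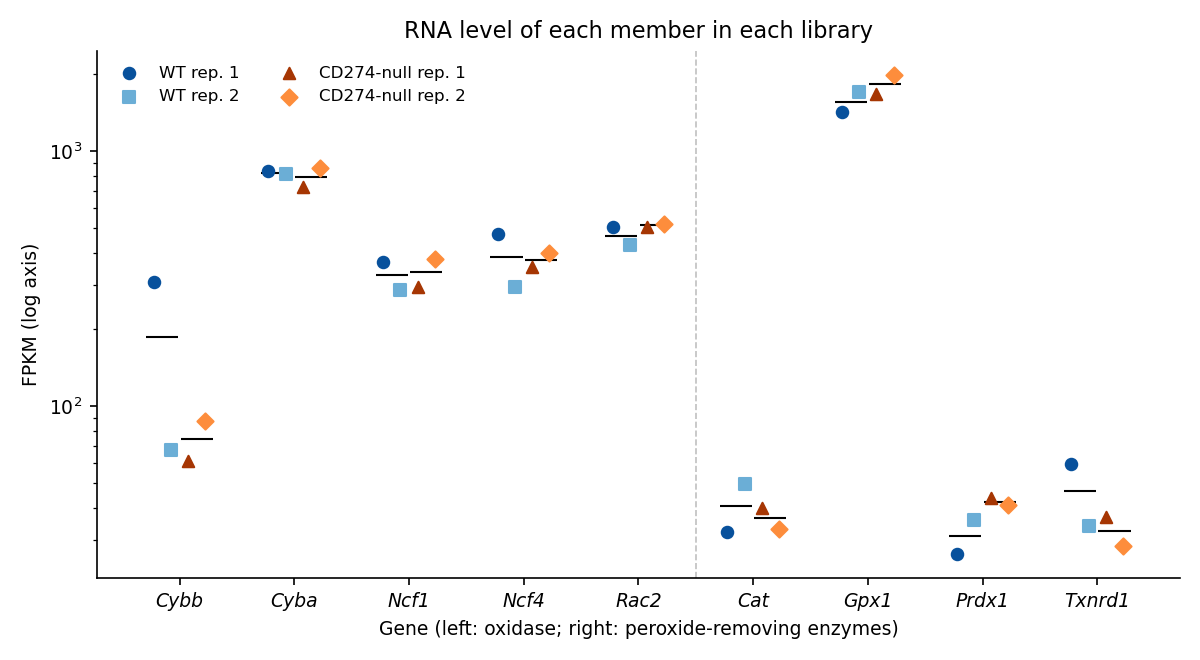
FPKM of the 9 members on a log axis, 1 symbol per library, with a short line at the mean of each group of 2 libraries and the oxidase genes left of the dashed line. Cyba and Rac2 varied 1.18-fold and 1.21-fold over the libraries, while Cybb was at 308 FPKM in WT replicate 1 and between 61.1 and 87.5 in the others.

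FPKM is scaled by gene length, so levels were set side by side. The lengths used and the handling of reads that match several genes are not given, so these are levels of FPKM as deposited. Averaged over the 4 libraries, Gpx1 was the highest member, at 1695 ± 235 FPKM (SD, n = 4), and ranked between 21 and 27 among the tested genes in every library. Cyba followed at 806 ± 57.1 and Rac2 at 487 ± 41.2. Ncf4 was at 379 ± 76.7, Ncf1 at 331 ± 48.5 and Cybb at 131 ± 118. Txnrd1, Cat and Prdx1 were at 39.6 ± 13.7, 38.6 ± 7.93 and 36.7 ± 7.59. The ranges over libraries did not overlap between Gpx1 and Cyba, between Cyba and Rac2, or between Cybb and Txnrd1, and the other neighbours in this order overlapped. By rank in the libraries, Cyba lay between 56 and 65, Rac2, Ncf4 and Ncf1 between 94 and 198, and the catalytic Cybb anywhere from 173 to 1566, whereas 3 of the 4 peroxide-removing members had ranks between 1597 and 3710.

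Cybb (NCBI gene 13058, GRCm38 chromosome X, 9435252 to 9487766), the catalytic subunit, was at 308 and 67.3 FPKM in WT against 61.1 and 87.5 in CD274-null libraries, resting on 16905, 3257, 2567 and 4139 recovered reads in this order. WT replicate 1 was high and the other 3 libraries lay close together, so the groups overlapped. The group means were 187 ± 170 for WT against 74.3 ± 18.7 FPKM for CD274-null (SD, n = 2 each). On the log2(FPKM + 0.5) scale the fold change was -0.97, with a standard error (SE) of 0.66, a 95% interval of -2.58 to 0.64 and an adjusted p of 0.543 from limma. WT replicate 1 held 4.57 times the FPKM of WT replicate 2, and 179 tested genes (1.35%) had a ratio between these libraries at least as large. Without WT replicate 1 the log2 fold change was 0.12, and without WT replicate 2 it was -2.07, past the candidate thresholds. The direction and the call for Cybb therefore depended on which WT library was kept.

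Among the mature neutrophil markers, the receptors Cxcr2 and Il1r2 were at 19.7 and 137 FPKM in WT replicate 1, and between 1.03 and 2.86 and between 4.34 and 7.41 in the other 3 libraries. Of the 13 markers, 9 were highest in WT replicate 1, and 6 of these by at least 1.5 times, a gap that 3.75% of all tested genes had. The other 4, Ltf, Camp, Ly6g and Ltb4r1, were highest in CD274-null replicate 2, at 216, 5918, 19.1 and 122 FPKM against 109, 5330, 4.27 and 72.8 in WT replicate 1. The 10 resident macrophage markers summed to 147 and 145 FPKM in WT against 90.1 and 106 in CD274-null libraries, mostly from Vcam1 and Adgre1. Cybb is X-linked, and Xist was lowest in WT replicate 1, at 2.57 FPKM against 51.1 to 107. The part of these cell type and sex chromosome differences in the Cybb level was not tested, and in bulk RNA more cells of a type and more RNA per cell cannot be told apart.

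Cyba (NCBI gene 13057, chromosome 8, 122424771 to 122432940), the partner that stabilizes gp91phox, stood at 832 and 811 FPKM in WT against 725 and 856 in CD274-null libraries. It was the steadiest member, the highest library being 1.18 times the lowest, and the groups overlapped. Its log2 fold change was -0.06 (SE 0.27, 95% interval -0.71 to 0.59, adjusted p = 0.940, limma). The interval covers both signs, and a difference within it was not detectable with 2 libraries per group. The Cyba to Cybb ratio of FPKM was 2.71 in WT replicate 1 and 12.0, 11.9 and 9.78 in WT replicate 2 and the CD274-null libraries. The RNAs of the membrane heterodimer thus varied 4.45-fold relative to each other, where Cyba alone varied 1.18-fold and Cybb 5.03-fold.

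Ncf1 (NCBI gene 17969, chromosome 5, 134220053 to 134229628), the organizer subunit, was found at 369 and 285 FPKM in WT against 294 and 376 in CD274-null libraries. Each group held 1 high and 1 low library, and the log2 fold change was 0.03 (SE 0.26, adjusted p = 0.966, limma), which turned to -0.10 when libraries were corrected for GC content. Ncf4 (NCBI gene 17972, chromosome 15, 78244164 to 78262582), which binds phosphoinositides at the phagosome, reached 474 and 293 FPKM in WT against 350 and 397 in CD274-null libraries. The CD274-null values lay between the WT values, and the log2 fold change was 0.00 (SE 0.30, adjusted p = 0.999, limma). Within each library these 2 genes tracked each other, with an Ncf4 to Ncf1 ratio of 1.28, 1.03, 1.19 and 1.06. The order of this ratio was not one of genotype, since its highest and its lowest values were both in WT.

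Rac2 (NCBI gene 19354, chromosome 15, 78559169 to 78572783), the hematopoietic Rac GTPase, measured 502 and 427 FPKM in WT against 503 and 518 in CD274-null libraries. Both CD274-null values lay above both WT values, but WT replicate 1 and CD274-null replicate 1 were almost equal. The log2 fold change was 0.14 (SE 0.24, 95% interval -0.45 to 0.73, adjusted p = 0.830, limma). Rac1, the widely expressed relative, was at 121 and 136 FPKM in WT against 123 and 114 in CD274-null libraries, and Rac2 exceeded it 3.14-fold to 4.55-fold in every library. These paralogs are alike in sequence, and reads could have been split between them in the authors' counting.

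**Figure D2:**
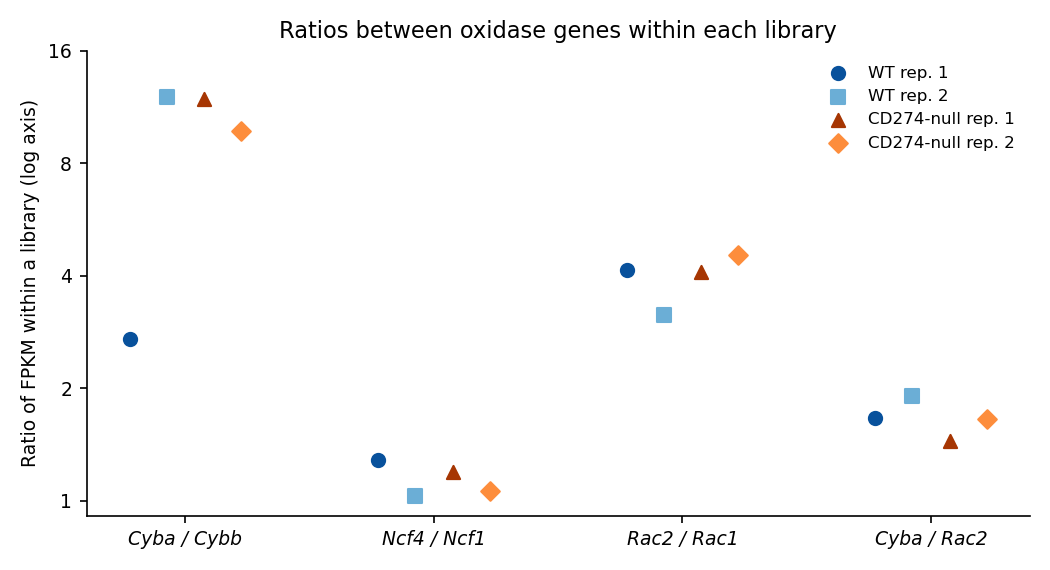
Ratio of FPKM between pairs of oxidase genes within each library, on a log axis, 1 symbol per library. The Cyba to Cybb ratio separated WT replicate 1, at 2.71, from the other libraries, at 9.78 to 12.0, while the Ncf4 to Ncf1 and Cyba to Rac2 ratios stayed within 1.25-fold and 1.32-fold.

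Among the other oxidase genes, 22 were listed and 14 tested, and the voltage-gated proton channel Hvcn1, which carries the protons that balance the electron flow of the oxidase, was the candidate. Hvcn1 (chromosome 5, 122206805 to 122242297) was at 16.3 and 23.9 FPKM in WT against 44.7 and 66.7 in CD274-null libraries. Both CD274-null values were above both WT values, with a log2 fold change of 1.44 (SE 0.30, 95% interval 0.72 to 2.17), but it missed the adjusted threshold (adjusted p = 0.251 in limma on FPKM, 0.273 in voom). Leaving out WT replicate 1 or either CD274-null library ended the call, with log2 fold changes of 1.16 to 1.73. Hvcn1 is also expressed in B cells. In the same CD274-null libraries immunoglobulin RNA was higher, with Igkc at 214 and 189 FPKM against 8.64 and 7.98 in WT, and Ighm at 49.1 and 162 against 9.04 and 14.1. Of the 10 B and plasma cell markers 4 were tested, and 3 of these, Igkc, Ighm and Jchain, were candidates, higher in CD274-null. Jchain was at 12.3 and 10.5 FPKM against 0.370 and 0.514 in WT (adjusted p = 0.0369, limma), and the fourth, Cd79b, overlapped between the groups. Among the low markers, Cd79a was at 0.596 and 0.757 FPKM against 0.0651 and 0.296, Pax5 at 0.0936 and 0.416 against 0 and 0, and Ms4a1 and Ebf1 at 0.134 or less in every library. A sort for Mac-1+/c-Kit+ cells would be expected to remove B cells, but the paper's sequencing methods mention none for these libraries. The part of B lineage RNA in the Hvcn1 difference was not tested.

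The remaining oxidase genes gave smaller differences. Prkcb, a kinase that phosphorylates p47phox, was at 37.9 and 37.6 FPKM in WT against 29.3 and 21.3 in CD274-null libraries (log2 fold change -0.58, adjusted p = 0.358, limma). Vav3, an exchange factor for Rac, had a log2 fold change of -0.51 and Noxo1, an organizer of other NOX enzymes, of 0.48, with adjusted p = 0.461 and 0.557 in limma, and for neither gene did the groups overlap. Cybc1, the chaperone of the membrane heterodimer, was at 35.1 and 50.2 against 54.2 and 60.6 FPKM (log2 fold change 0.44, adjusted p = 0.465, limma). The catalytic subunits of other NADPH oxidases were nearly silent, with Nox1, Nox3, Nox4, Duox1 and Duox2 at 0.0668 FPKM or less in every library. Cybb was therefore the only one of these catalytic subunits that entered the test. In counts, 1 of the 14 tested genes was a candidate, beside 3.63% of all tested genes. In this list 4 genes lay above and 4 below without overlap, close to the 25.6% and 21.8% of all tested genes. The median log2 fold change was 0.02.

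Gpx1 (NCBI gene 14775, chromosome 9, 108339080 to 108340342) was at 1418 and 1698 FPKM in WT against 1674 and 1992 in CD274-null libraries. WT replicate 1 was lowest and CD274-null replicate 2 highest, and the remaining pair overlapped. Its log2 fold change was 0.23 (SE 0.32, 95% interval -0.55 to 1.02, adjusted p = 0.781, limma). Cat (NCBI gene 12359, chromosome 2, 103453904 to 103485153) was at 32.2 and 49.4 FPKM in WT against 39.8 and 33.1 in CD274-null libraries, the CD274-null values lying inside the WT range (log2 fold change -0.13, SE 0.27, adjusted p = 0.861, limma). Gpx1 RNA exceeded Cat RNA per length 34.4-fold to 60.2-fold in these LICs, with the lowest ratio in WT replicate 2 and the highest in CD274-null replicate 2.

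Prdx1 (NCBI gene 18477, chromosome 4, 116685599 to 116700000) had the lowest unadjusted p of the members. It was at 26.4 and 35.7 FPKM in WT against 43.6 and 40.9 in CD274-null libraries, and the recovered reads were 433, 515, 547 and 577. Both CD274-null values were above both WT values, by a log2 fold change of 0.45 (SE 0.23, 95% interval -0.11 to 1.02), but this missed the threshold (adjusted p = 0.440 in limma on FPKM, 0.450 in voom). Prdx1 has a GC content of 42.3%. With each library corrected for GC content its log2 fold change was 0.58, still short of a candidate. Its unadjusted p was then under 0.05 and its adjusted p 0.358, both in limma. The tested genes whose profile over the 4 libraries lay closest to that of Prdx1 were Pfkfb1, Zfyve19 and Exog, at Euclidean distances of 0.023, 0.031 and 0.038 on the centred log2 scale. Without WT replicate 1 the log2 fold change of Prdx1 was 0.24. With 4 libraries the likeness of profiles is a description only.

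Txnrd1 (NCBI gene 50493, chromosome 10, 82833951 to 82897724) was at 59.5 and 33.8 FPKM in WT against 36.7 and 28.3 in CD274-null libraries, with 2765, 1383, 1305 and 1133 recovered reads. WT replicate 1 was highest and the other WT library lay between the CD274-null values. This gave a log2 fold change of -0.47 (SE 0.32, 95% interval -1.24 to 0.30, adjusted p = 0.541, limma). Leaving out WT replicate 1 brought it to -0.067, and leaving out WT replicate 2 to -0.87, which was no candidate either. Eid3, a gene that lies inside Txnrd1 on the same strand, was at 2.51 FPKM or less in every library. Genes on the opposite strand also overlap Cyba, Ncf1 and Txnrd1, and the library kit does not mark strand, so their reads cannot be told apart there.

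**Figure D3:**
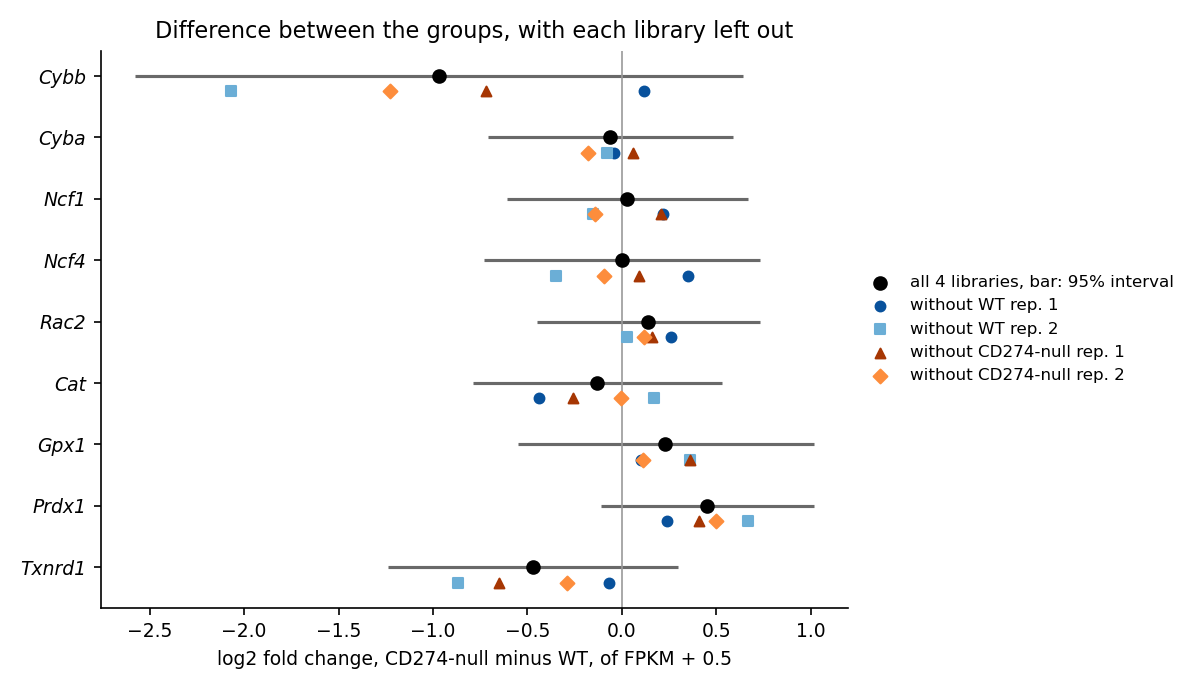
Log2 fold change of each member, CD274-null minus WT, on the log2(FPKM + 0.5) scale, with all 4 libraries (black, bar at the 95% interval from limma) and with each library left out (colored symbols). Every interval included 0, and Cybb moved from -2.07 without WT replicate 2 to 0.12 without WT replicate 1.

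Promoters were searched because Prdx1 and Txnrd1 are textbook NRF2 targets. The antioxidant response element core, TGACNNNGC or GCNNNGTCA on the other strand, was sought in the 250 bases before each RefSeq start (GRCm38.p6). It was found for 2 of the 7 members with an entry (28.6%), Prdx1 and Txnrd1, and for 14 of 80 genes of the related lists (17.5%). Of all 32851 promoters of this length, counted 1 by 1 where a gene may have several, 3338 held it (10.2%). Ncf4 and Rac2 have no entry. The PU.1 core GAGGAA, or TTCCTC, of the myeloid ETS factor was found for 3 of the 7 members, Cat, Prdx1 and Txnrd1, against 23.3% of promoters. Matches of the 2 motifs overlapped in 0 of the windows searched here. Of the 6 members and list genes high in WT replicate 1, described next, the antioxidant core was found for 3, Txnrd1, Gclm and G6pdx, and not for Cybb, Slc7a11 and Txnrd3. The windows of Prdx1 and of these 3 genes that hold the core are shown 5' to 3' on the gene's strand, with the core in capitals.
Prdx1: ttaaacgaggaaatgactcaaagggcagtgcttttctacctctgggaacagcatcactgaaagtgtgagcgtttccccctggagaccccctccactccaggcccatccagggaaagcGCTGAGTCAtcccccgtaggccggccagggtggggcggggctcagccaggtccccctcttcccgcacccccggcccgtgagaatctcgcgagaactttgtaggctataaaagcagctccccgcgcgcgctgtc
Txnrd1: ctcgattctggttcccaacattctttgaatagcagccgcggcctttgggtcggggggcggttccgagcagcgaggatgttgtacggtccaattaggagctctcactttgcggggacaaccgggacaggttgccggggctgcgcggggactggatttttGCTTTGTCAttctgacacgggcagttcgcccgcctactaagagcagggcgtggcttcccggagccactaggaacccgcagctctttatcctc
Gclm: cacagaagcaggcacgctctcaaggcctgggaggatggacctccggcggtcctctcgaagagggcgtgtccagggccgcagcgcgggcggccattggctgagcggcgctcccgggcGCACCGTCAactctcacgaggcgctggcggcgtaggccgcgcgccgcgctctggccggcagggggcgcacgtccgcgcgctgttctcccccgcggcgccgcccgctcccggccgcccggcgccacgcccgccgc
G6pdx: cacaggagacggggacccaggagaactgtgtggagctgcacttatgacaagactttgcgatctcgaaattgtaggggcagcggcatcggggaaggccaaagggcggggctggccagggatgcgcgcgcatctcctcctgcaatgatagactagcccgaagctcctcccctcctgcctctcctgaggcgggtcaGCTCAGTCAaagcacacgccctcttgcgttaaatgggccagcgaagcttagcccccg

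The Prdx1 window is chr4:116685349-116685598 on the plus strand, with its core from 133 to 125 bases before the start. In Txnrd1 the core lay 92 to 84 bases before 1 of 3 listed starts, in chr10:82858956-82859205 on the plus strand. The Gclm window is chr3:122245307-122245556 on the plus strand and the G6pdx window chrX:74428881-74429130 on the minus strand. All 4 cores were the reverse form. A match is a description of letters, not a bound site, and these RNA data do not measure binding.

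Among the list genes, 4 of the 77 tested were, like Cybb and Txnrd1, high in WT replicate 1, a share near that of all genes. Gclm, the modifier subunit of the enzyme that begins glutathione synthesis, was at 59.0 FPKM there and at 14.2, 22.5 and 14.5 in WT replicate 2 and the CD274-null libraries. Slc7a11, the cystine importer, was at 3.67 against 0.181, 0.294 and 0.141 FPKM, from 392, 17, 24 and 13 recovered reads. G6pdx, the X-linked entry enzyme of the pentose phosphate pathway, was at 199 against 64.3, 98.4 and 113, and Txnrd3 at 7.10 against 3.74, 4.15 and 2.83 FPKM. These genes were picked out after their values were seen, by the rule that WT replicate 1 is at least 1.5 times the highest other library after adding 0.5 to each FPKM, which 496 of all tested genes met (3.75%). Of the members 2 met it, Cybb and Txnrd1. The same rule for the other libraries was met by 2.15% to 3.95% of genes and by 0 members. Prdx1, Gpx1 and Cat were, by contrast, lowest in WT replicate 1.

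**Figure D4:**
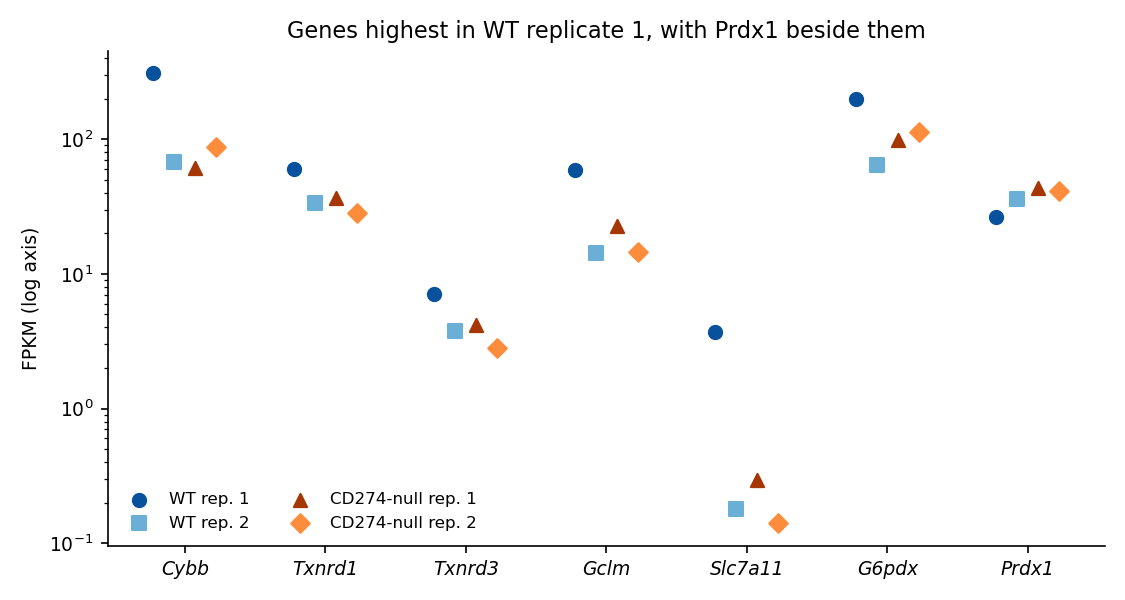
FPKM on a log axis, 1 symbol per library, of the members and list genes highest in WT replicate 1 by at least 1.5 times, with Prdx1 beside them. Slc7a11 was at 3.67 FPKM in WT replicate 1 and at 0.294 or less elsewhere, and Prdx1 was lowest in WT replicate 1, at 26.4.

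In the list of superoxide dismutases and enzymes that use peroxide, 4 of 5 genes were tested. The candidate was Mpo, myeloperoxidase of the primary granules, which turns hydrogen peroxide into hypochlorous acid. Mpo (chromosome 11, 87793784 to 87804412) was at 444 and 403 FPKM in WT against 1427 and 925 in CD274-null libraries. The groups were far apart, with a log2 fold change of 1.44 (SE 0.31), yet the adjusted p in limma was 0.251 and leaving out any 1 of the 4 libraries ended the call, at log2 fold changes of 1.13 to 1.75. Epx, its eosinophil relative, was at 0.771 and 0.730 FPKM in WT against 0.924 and 2.76 in CD274-null libraries (log2 fold change 0.79, adjusted p = 0.526, limma), and at a log2 fold change of 0.19 without CD274-null replicate 2. Sod1 and Sod2, which make peroxide from superoxide in cytosol and mitochondria, had log2 fold changes of 0.01 and -0.14 with overlapping groups.

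In the glutathione system 16 of 19 genes were tested, with a median log2 fold change of -0.03. Mgst2, a microsomal glutathione transferase, was the candidate, at 34.0 and 44.5 FPKM in WT against 81.2 and 90.0 in CD274-null libraries (log2 fold change 1.12, SE 0.23, adjusted p = 0.251, limma). The call was lost when either CD274-null library was left out, at log2 fold changes of 1.20 and 1.05. The related Mgst3 was at a log2 fold change of 0.82 (adjusted p = 0.332, limma), whereas Mgst1 had -0.02 with overlapping groups. Gsr, the reductase that restores the glutathione that Gpx1 uses, was lower without overlap, at 669 and 745 FPKM against 504 and 548, but short of the threshold (log2 fold change -0.42, adjusted p = 0.495, limma). Glrx, a glutaredoxin, was at -0.10 on the log2 scale (adjusted p = 0.853, limma). Over this list 2 genes lay above and 2 below without overlap, where all tested genes had 25.6% and 21.8%.

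Peroxiredoxin and thioredoxin genes included 0 candidates among 13 tested, and 0 with an unadjusted p under 0.05 in limma, where all tested genes had 3.63% and 13.7%. Prdx5 had by far the highest FPKM of the peroxiredoxins, at 956 and 795 in WT against 949 and 1281 in CD274-null libraries. This was 21.7-fold to 36.2-fold the FPKM of Prdx1. Prdx6 was lower without overlap, at 139 and 114 against 107 and 95.1 FPKM (log2 fold change -0.31, adjusted p = 0.548, limma). Txnip, the inhibitor of thioredoxin, had a log2 fold change of -0.47 and Sesn1, a p53 target of the sestrin family, of 0.81 (adjusted p = 0.452 and 0.400, limma), both without overlap. In this list 2 genes lay above and 2 below without overlap, against 25.6% and 21.8% of all tested genes. Txn1, the substrate of Txnrd1, was steady between 174 and 199 FPKM.

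Genes that supply NADPH, which both the oxidase and the reductases consume, included 0 candidates among 7 tested, beside 3.63% of all tested genes. Pgd, the second NADPH-producing step of the pentose phosphate pathway, was at 358 and 391 FPKM in WT against 476 and 543 in CD274-null libraries, and Taldo1 of the same pathway at 350 and 356 against 459 and 525. Nnt, the mitochondrial transhydrogenase, was at 13.0 and 17.1 against 19.9 and 23.2 FPKM. All 3 were above WT without overlap, by log2 fold changes of 0.44, 0.48 and 0.51, and missed the threshold (adjusted p = 0.456, 0.422 and 0.419, limma), where 25.6% of all tested genes lay above without overlap. The median of this list was 0.28, beside 0.01 over all tested genes.

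Of 14 NRF2 regulators and targets, all tested, 0 were candidates and 1 had an unadjusted p under 0.05 in limma, no more than the 3.63% and 13.7% of all tested genes. That 1 was Nfe2l2, the gene of NRF2 itself, at 23.4 and 16.4 FPKM in WT against 31.2 and 60.6 in CD274-null libraries (log2 fold change 1.13, SE 0.36, adjusted p = 0.306, limma). With 1 library left out its log2 fold change ran from 0.66, without CD274-null replicate 2, to 1.61, without CD274-null replicate 1. Its target Nqo1 was low, at 0.668 and 1.46 FPKM against 0.364 and 0.388, with a log2 fold change of -0.79, and Mafk, a small MAF partner, one of 0.68, with adjusted p = 0.491 and 0.420 in limma. The median of the list was -0.06, with 3 genes above and 3 below without overlap, close to the 25.6% and 21.8% of all tested genes.

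The list of selenoprotein synthesis, on which Gpx1 and Txnrd1 depend, also held the selenoproteins Selenof, Selenok, Selenow and Selenop. Its 9 tested genes included 0 candidates, and their median log2 fold change of 0.29 covers both kinds of gene. Of the synthesis genes, Sephs2, Secisbp2 and Eefsec had log2 fold changes of -0.26, 0.32 and 0.08. Sepsecs and Pstk, which act in turn on the selenocysteine tRNA, had log2 fold changes of -0.46 and 0.33, and Selenok, an endoplasmic reticulum selenoprotein, one of 0.33, each without overlap and with adjusted p = 0.530, 0.617 and 0.508 in limma. In this list 4 genes lay above and 2 below without overlap, where all tested genes had 25.6% and 21.8%. Over all 92 listed genes, 77 were tested and 3 were candidates, all 3 higher in CD274-null, a share to be read against the 3.63% of all tested genes. After adjustment 0 list genes passed in limma, where 6 of the 77 had an unadjusted p under 0.05 against 13.7% of all tested genes, and the signs were split, 39 higher and 38 lower.

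**Figure D5:**
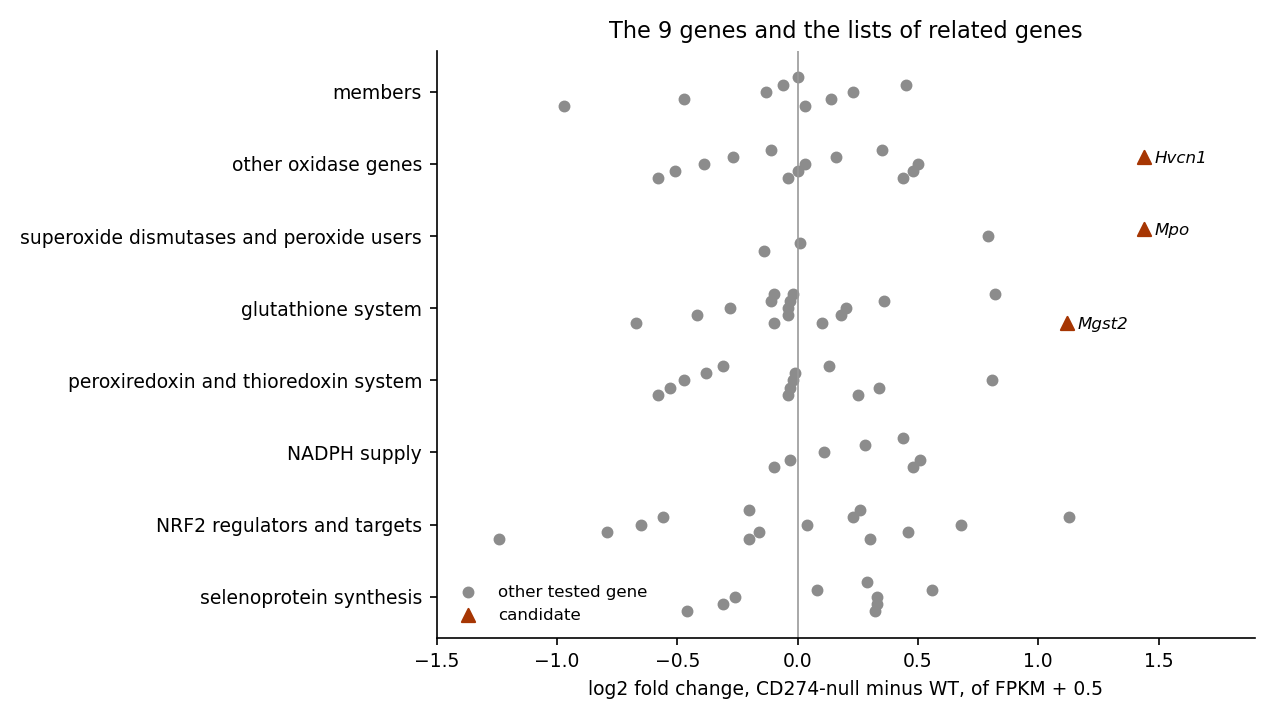
Log2 fold change, CD274-null minus WT, on the log2(FPKM + 0.5) scale, of every tested gene of the members and the 7 lists of related genes, 1 point per gene, with triangles for candidates. Points lay on both sides of 0 in each row, and the 3 candidates, Hvcn1, Mpo and Mgst2, were at 1.44, 1.44 and 1.12.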

How the data were processed

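RNA from 4 libraries (2 WT, 2 CD274-null) of LICs was prepared with TruSeq v2, which does not mark strand. The paper's sequencing methods describe the RNA as isolated from tissue and mention no sort for these libraries. Reads were aligned by the authors to GRCm38 with TopHat2 2.0.12 (CASAVA 1.8.2 is also listed in the submitters' processing notes). The authors deposited FPKM per gene; the program and gene lengths behind FPKM are not given in the sources used here. Genes were named by NCBI gene number (25275 of 27179 matched RefSeq, GRCm38.p6), and 0 sample columns were left unassigned.

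From there, log2(FPKM + 0.5) was compared for 13230 genes averaging 0.5 FPKM or more with limma 3.58.1 in R 4.3.3 (eBayes with trend, no covariates, Benjamini-Hochberg adjustment); log2 fold changes understate low genes. Candidates passed an unadjusted p of 0.01 and changed more than 1.5-fold. The FPKM ratios between libraries gave back whole reads, save for any common factor, for 17083 genes (100.0% of the genes with 2 or more libraries above 0, tolerance 0.001), and these were tested with limma's voom, an alternative chosen after seeing the data. Fits were tested on simulated data.

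The members and lists were chosen with earlier results of these data known. Named genes were the members, listed candidates and, per list, up to 3 further tested genes with the largest fold change and groups that did not overlap; other genes named were chosen after their values were seen. Alternatives were other pseudocounts, filters, scalings and moderation, a replicate block, GC correction (loess, span 0.3), and leaving out each library. Some listed genes are not reported here by name.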

Additional observations from a re-analysis of the deposited data

How the results depend on the processing

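The precision of every member is limited by 2 libraries per group, and the 95% intervals of all 9 members include 0. The candidates among all tested genes numbered 480, and 170 with a linear model without moderation, 283 with GC correction and replicate block together, and 147 to 634 with 1 library left out. Their split of 316 higher and 164 lower was 253 and 210 after quantile normalization, 246 and 196 with equal medians and 160 and 162 after GC correction, which covers only the 11435 genes with a GC value, where the split without correction was 218 and 132. Log2 fold changes followed GC content across 11435 genes (Spearman correlation 0.271, genes not being independent replicates). The replicate block, on numbers that share no stated source (correlation of deviations -0.015 over genes), gave 526 candidates and changed no call among members and lists. A planned quasi-likelihood count test on recovered reads was fitted once and left out, since such models are kept here for deposited counts, and limma's voom, added after seeing the data, gave 452 candidates, or 431 with median-of-ratios size factors. Members that were candidates remained at 0 in every setting but 1: with 1 library left out they numbered 0 to 1, the 1 being Cybb without WT replicate 2. List genes that were candidates numbered 3, and 0 without moderation and 0 to 5 with 1 library left out (5 without WT replicate 2, 1 without WT replicate 1 and 0 without either CD274-null library). Hvcn1, Mpo and Mgst2 lost the call without moderation, and Mpo also without a filter on low genes. With 1 library left out, a lone library is assumed to vary like the other group, and the log2 fold change of Cybb ran from -2.07 to 0.12, of Cyba from -0.18 to 0.059, of Ncf1 from -0.15 to 0.22, of Ncf4 from -0.35 to 0.35 of Cat from -0.44 to 0.17, of Rac2 from 0.026 to 0.26, of Gpx1 from 0.10 to 0.36, of Prdx1 from 0.24 to 0.67 and of Txnrd1 from -0.87 to -0.067. Among other named genes, Sesn1 ran from 0.35 to 1.26, Txnip from -0.72 to -0.21, Nqo1 from -1.16 to -0.42, Mafk from 0.33 to 1.02 and Sepsecs from -0.74 to -0.18. Prkcb ran from -0.81 to -0.36, Vav3 from -0.74 to -0.28, Noxo1 from 0.32 to 0.63 and Mgst3 from 0.53 to 1.12. Prdx6 ran from -0.46 to -0.17, Glrx from -0.18 to -0.025, Nnt from 0.32 to 0.70 and Pstk from 0.20 to 0.46. Ncf1 also reversed to -0.10 with GC correction and to -0.10 with GC correction and replicate block. In each of these settings 1 member had an unadjusted p under 0.05 in limma, against 0 in the reported fit. Rac2, Gpx1, Prdx1 and Txnrd1 kept their sign in all 17 alternatives, but GC correction brought Gpx1 from 0.23 to 0.007 and Rac2 from 0.14 to 0.027, and it moved Cyba to -0.32 and Ncf4 to -0.18. The cause of these shifts was not tested.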

Other observations

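Cat, Sod1 and Idh1 had the same order of libraries, which was not one of genotype. Cat was at 32.2, 49.4, 39.8 and 33.1 FPKM in WT replicates 1 and 2 and CD274-null replicates 1 and 2. Sod1, the cytosolic superoxide dismutase, was at 134, 253, 231 and 149 FPKM, and Idh1, a cytosolic source of NADPH, at 14.0, 41.5, 34.0 and 20.0. The same order was found for 788 of the 13230 tested genes (5.96%), and these 3 were picked after their values were seen.

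Regulators of NRF2 gave further values that missed the adjusted threshold. Bach1, a repressor at antioxidant response elements, was at 18.0 and 23.5 FPKM in WT against 16.0 and 10.5 in CD274-null libraries (log2 fold change -0.65, adjusted p = 0.399, limma). Mafg, a small MAF partner, was at 54.2 and 40.9 against 33.7 and 29.8 FPKM (log2 fold change -0.56, adjusted p = 0.364, limma). Keap1, which targets NRF2 for degradation, was at 18.3 and 20.1 against 24.3 and 20.9 FPKM (log2 fold change 0.23, adjusted p = 0.674, limma). Maff, another small MAF, overlapped between the groups, with a log2 fold change of 0.30. Bach1 and Mafg were lower and Keap1 higher in CD274-null without overlap. Of all tested genes, 21.8% lay below and 25.6% above without overlap. All 4 regulators were chosen after their values were seen.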
